A study of Mus musculus with 40 samples.

Results

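Th, Ddc, Gch1, Slc18a2 and Slc6a3 are the genes with which a dopamine neuron makes, stores and takes back its transmitter, and they are described here in the mouse ventral tegmental area, where dopamine cell bodies lie in the midbrain. They were picked by symbol and not by their values, and are 5 of the 55471 genes in the count table. The 40 libraries were messenger RNA sequencing of brain punches from adult mice of the strains DBA and C57/Bl6 (C57 below), of both sexes. Each strain and sex had 5 libraries of repeated cross fostering (RCF), in which a litter got another adoptive mother on each day from postnatal day 1 to 4, and 5 of unhandled controls. The 8 groups are therefore DBA RCF males and DBA control males, DBA RCF females and DBA control females, C57 RCF males and C57 control males, and C57 RCF females and C57 control females. All mice were adults, and no other treatment or allele is given. The animal, litter and day behind each library are not given, so a p-value here reflects only how far these libraries lie apart, which may be technical.

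Dopamine is made from tyrosine. Th encodes tyrosine hydroxylase, the rate-limiting enzyme, which needs tetrahydrobiopterin as a cofactor, and Gch1 encodes GTP cyclohydrolase, the first enzyme of cofactor synthesis. Ddc encodes aromatic L-amino acid decarboxylase, which turns DOPA into dopamine and also makes serotonin. Slc18a2 encodes the vesicular monoamine transporter VMAT2, which loads dopamine, serotonin and histamine into vesicles, and Slc6a3 encodes the plasma membrane transporter that takes dopamine back up. Th, Slc6a3 and Slc18a2 RNA together mark dopamine neurons of the midbrain, while Ddc, Slc18a2 and Gch1 are also used by serotonin neurons, Slc18a2 by histamine neurons and Th by noradrenaline neurons.

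On the GRCm38 build Th (ENSMUSG00000000214.11) lies at chr7:142892752-142931128 on the minus strand and Ddc (ENSMUSG00000020182.16) at chr11:11814101-11898144, also on the minus strand. Slc6a3 (ENSMUSG00000021609.6) lies at chr13:73536747-73578672 and Slc18a2 (ENSMUSG00000025094.8) at chr19:59260896-59296012, both on the plus strand. Gch1 (ENSMUSG00000037580.10) lies at chr14:47153895-47189413 on the minus strand. No annotated gene overlaps Th or Slc6a3. Ddc is overlapped by 1700042O10Rik and Slc18a2 by Gm29261, each on the opposite strand, and Gch1 by Gm49134 on the opposite strand and Gm18811 on its own, so their counts could hold reads of these neighbours.

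The 5 genes moved together across libraries, so their promoters are shown, from 150 bases before the RefSeq start to 10 bases from it (GRCm38.p6, 5′ to 3′ along each gene). The search covered 300 bases, 250 before and 50 from the start on, on both strands, for the 4 motifs TGACGTCA (a cyclic AMP response element), AAAGGTCA (the response element of Nr4a receptors), CCAAT and TAATCC (a bicoid-type homeodomain site). Capitals mark a match.
Th, chr7:142899986-142900145, minus strand: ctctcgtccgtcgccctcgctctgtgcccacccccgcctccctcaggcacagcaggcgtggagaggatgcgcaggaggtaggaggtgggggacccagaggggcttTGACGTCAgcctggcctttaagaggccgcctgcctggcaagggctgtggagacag
Slc18a2, chr19:59260728-59260887, plus strand: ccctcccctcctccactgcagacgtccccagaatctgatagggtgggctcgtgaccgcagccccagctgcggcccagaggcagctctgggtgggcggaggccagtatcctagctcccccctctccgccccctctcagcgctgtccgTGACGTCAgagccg
Ddc, upstream start, chr11:11898135-11898294, minus strand: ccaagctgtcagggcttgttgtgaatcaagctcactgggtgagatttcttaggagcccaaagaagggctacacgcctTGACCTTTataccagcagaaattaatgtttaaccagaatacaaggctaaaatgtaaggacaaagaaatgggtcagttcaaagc
Gch1, chr14:47189404-47189563, minus strand: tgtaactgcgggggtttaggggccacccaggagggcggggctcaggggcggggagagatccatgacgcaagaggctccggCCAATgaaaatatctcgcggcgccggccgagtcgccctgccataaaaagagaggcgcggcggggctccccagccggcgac
Slc6a3, chr13:73536597-73536756, plus strand: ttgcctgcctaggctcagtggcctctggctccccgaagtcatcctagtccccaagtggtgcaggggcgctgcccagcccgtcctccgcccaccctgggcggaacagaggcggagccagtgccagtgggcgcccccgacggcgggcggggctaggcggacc
Th and Slc18a2 both carried TGACGTCA, 45 and 4 bases before the start, a motif in 1.79% of 32851 RefSeq promoter windows. The upstream Ddc start had AAAGGTCA on the other strand, 73 bases before the start, which 1.51% of windows hold. Gch1 had CCAAT 70 bases before the start, and a second Ddc start had it 55 bases before the start on the other strand, in a motif found in 37.4% of windows. The Slc6a3 window held none of the 4 motifs, and TAATCC, present in 7.06% of windows, was in none of the 5 genes. The 5 genes thus had no searched motif in common in these windows. A match describes letters only.

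Total counts ran from 16913124 to 28179071 per library, and levels are CPM, counts scaled to library size with TMM factors. All 5 genes passed the filter on low counts, with 18441 genes tested. Slc17a7, a marker of forebrain glutamate neurons, was 1312 CPM in DBA control female 3, 1223 CPM in C57 control male 1, 1076 CPM in C57 RCF female 4 and 503 CPM in C57 control male 5, against a median of 10.96 CPM over the 40 libraries. The counts of genes called below were repeated without these 4 libraries, a choice made after their values were seen.

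The levels of all 5 genes spanned a very wide range, and most of it lay between libraries of the same group. Th ran from 0.725 to 1644 CPM (median 40.1 CPM), Slc6a3 from 0.460 to 2959 CPM (median 35.7 CPM) and Slc18a2 from 3.40 to 1307 CPM (median 39.1 CPM). Ddc ran from 14.2 to 1189 CPM (median 41.3 CPM) and Gch1 from 0.910 to 106.5 CPM (median 3.42 CPM). The spread within groups held 85.5% of the variance of log2 CPM for Th, 86.9% for Slc6a3, 75.5% for Ddc, 72.9% for Slc18a2 and 72.0% for Gch1. DBA control male 3 was the highest of the 40 libraries for each of the 5 genes. In 6 of the 8 groups 1 library was the highest for all 5 genes, and the exceptions were DBA RCF males and C57 RCF females. In a bulk punch, fewer dopamine cells and less RNA per cell cannot be told apart.

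**Figure D1:**
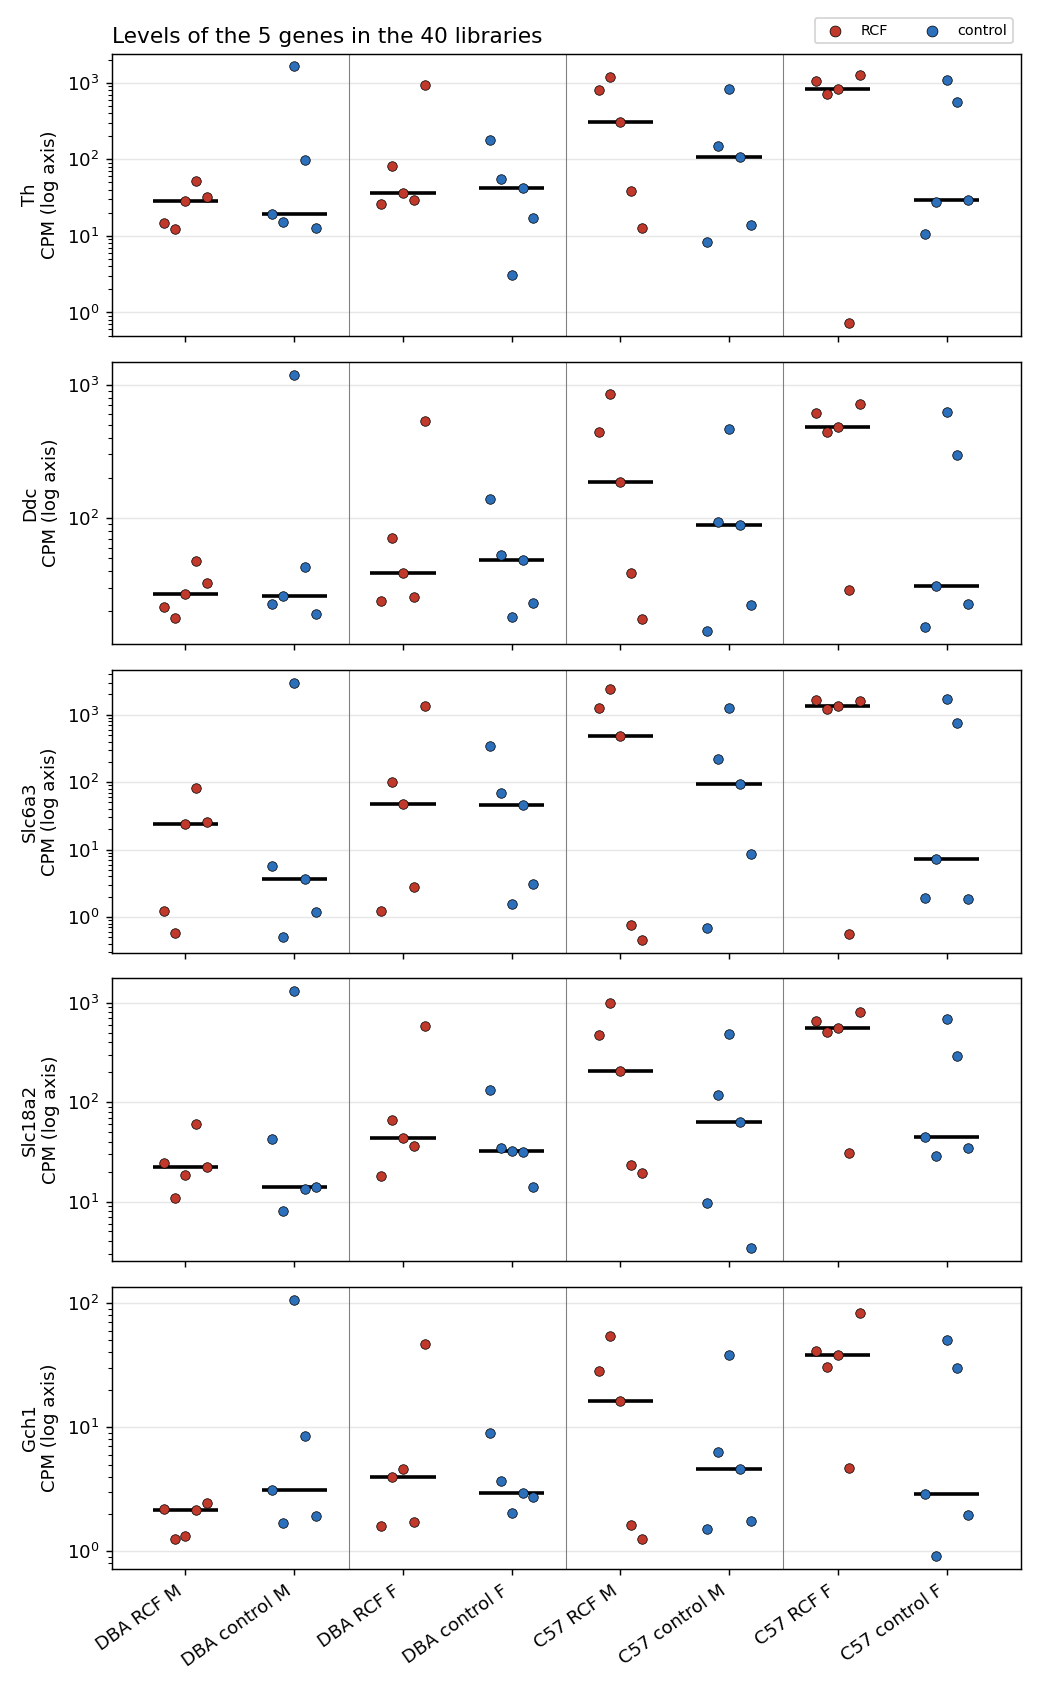
Levels of Th, Ddc, Slc6a3, Slc18a2 and Gch1 in CPM on log axes, 1 dot a library, in the 8 groups (n = 5 each, black bars are medians). Every RCF group overlaps its control group for each gene, and the same libraries stand high in each panel, such as DBA control male 3 with 1644 CPM of Th and 2959 CPM of Slc6a3.

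Th, the rate-limiting enzyme, had 14.9, 12.4, 29.0, 52.2 and 32.3 CPM in DBA RCF males, against 19.6, 15.2, 1644, 97.7 and 12.7 CPM in DBA control males. In DBA RCF females it had 26.3, 82.5, 36.1, 29.1 and 935 CPM, against 179, 54.9, 3.11, 41.7 and 17.2 CPM in DBA control females. The groups overlapped in both sexes of DBA, and 1 library lay far above the rest in the control males and in the RCF females. In C57 RCF males Th had 811, 1200, 306, 38.5 and 12.6 CPM, against 8.34, 149, 835, 106 and 13.8 CPM in C57 control males. In C57 RCF females it had 1068, 726, 841, 0.725 and 1259 CPM, against 10.7, 27.8, 1100, 557 and 29.1 CPM in C57 control females. These groups overlapped too, although 4 of the 5 C57 RCF females had at least 726 CPM and the fifth was the lowest library of the series, with 14 Th reads.

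Slc6a3, the reuptake transporter, covered a wider range than any other of the 5 genes, and 6 of the 40 libraries had under 1 CPM of it. It had 1.22, 0.589, 23.9, 81.3 and 25.8 CPM in DBA RCF males, against 5.78, 0.499, 2959, 3.63 and 1.19 CPM in DBA control males. In DBA RCF females it had 1.25, 101, 47.7, 2.81 and 1357 CPM, against 338, 69.1, 1.55, 45.6 and 3.10 CPM in DBA control females. Libraries of one group therefore lay both near the lowest and near the highest level of the series. In C57 RCF males it had 1270, 2444, 491, 0.773 and 0.460 CPM, against 0.679, 218, 1250, 94.0 and 8.72 CPM in C57 control males. In C57 RCF females it had 1661, 1212, 1353, 0.569 and 1601 CPM, against 1.88, 7.32, 1702, 760 and 1.84 CPM in C57 control females. A median of 1353 CPM in C57 RCF females stood against 7.32 CPM in their controls, yet each group held libraries on both sides.

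Ddc, the decarboxylase, never fell below 14.2 CPM. It had 21.7, 17.8, 27.2, 47.8 and 32.8 CPM in DBA RCF males, against 22.9, 26.3, 1189, 43.4 and 19.1 CPM in DBA control males. In C57 RCF females it had 614, 439, 484, 29.1 and 715 CPM, against 15.4, 31.2, 622, 298 and 22.8 CPM in C57 control females. Its high libraries were those of Th. Ddc averaged 139 CPM in DBA RCF females and 56.4 CPM in DBA control females, and 308 CPM in C57 RCF males and 136 CPM in C57 control males, with standard deviations of 223, 48.8, 350 and 186 CPM over 5 libraries each. Each of these standard deviations was as large as its mean or close to it.

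Slc18a2, the vesicle transporter, had 24.5, 10.8, 18.4, 60.7 and 22.3 CPM in DBA RCF males, against 42.4, 7.95, 1307, 13.3 and 13.9 CPM in DBA control males. In C57 RCF females it had 654, 512, 555, 30.6 and 815 CPM, against 44.7, 29.0, 685, 293 and 34.7 CPM in C57 control females. Gch1, the cofactor enzyme, had the lowest median CPM of the 5 genes and was below the other 4 in 27 of 40 libraries, with 2.21, 1.26, 1.32, 2.15 and 2.44 CPM in DBA RCF males, against 3.13, 1.68, 106.5, 8.55 and 1.91 CPM in DBA control males. In DBA males Gch1 was therefore low and even in the RCF libraries, while its control libraries reached higher values and overlapped them. In C57 RCF females Gch1 had 41.4, 30.6, 38.0, 4.66 and 82.7 CPM, against 2.91, 0.910, 50.6, 30.0 and 1.98 CPM in C57 control females.

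C57 RCF females had the highest mean log2 CPM of the 8 groups for all 5 genes and C57 RCF males the second, while DBA RCF males had the lowest for all 5. The largest step between neighbours in that order was 0.95 for Th, 1.17 for Ddc, 2.39 for Slc6a3, 1.35 for Slc18a2 and 1.67 for Gch1, in log2 CPM. Each was smaller than the standard deviation within groups, which was 2.82 for Th, 1.94 for Ddc, 4.46 for Slc6a3, 2.16 for Slc18a2 and 1.89 for Gch1. Steps between means set against the spread of single libraries do not test a difference between groups. Group means ran from 4.63 to 7.86 for Th, 4.80 to 8.26 for Ddc and 3.09 to 8.28 for Slc6a3. They ran from 4.54 to 8.42 for Slc18a2 and 0.92 to 4.84 for Gch1, so this whole span was larger than the standard deviation for each gene.

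The comparison of RCF with control asked whether early fostering by changing mothers was followed by other levels of these genes in adults. None of the 5 genes passed an adjusted p of 0.05 in edgeR's quasi-likelihood test in any of the 4 conditions. The share of all tested genes called was 0.0163% in DBA males, 0.0163% in DBA females, 0.0108% in C57 males and 0.00542% in C57 females, so 0 of 5 is what such shares give. DESeq2 and limma voom called 0 of 5 as well. Fold changes are RCF over control on the log2 scale. In DBA males they were -3.67 for Th, -3.14 for Ddc, -4.48 for Slc6a3, -3.34 for Slc18a2 and -3.71 for Gch1, with standard errors of 1.63, 1.30, 2.39, 1.42 and 1.31. Their unadjusted p-values in edgeR were 0.0310 for Th, 0.0210 for Ddc, 0.0695 for Slc6a3, 0.0245 for Slc18a2 and 0.00797 for Gch1, and the adjusted ones 0.671 to 0.761.

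Those values in DBA males rested on 1 control library. Without DBA control male 3 the log2 fold change was -0.37 for Th, 0.07 for Ddc, 3.24 for Slc6a3, 0.49 for Slc18a2 and -1.02 for Gch1, so that 3 of the 5 changed direction. The medians already went the other way for 4 of the 5. They were 29.0 CPM in RCF libraries and 19.6 CPM in controls for Th, 27.2 and 26.3 CPM for Ddc, 23.9 and 3.63 CPM for Slc6a3, and 22.3 and 13.9 CPM for Slc18a2, in the same order. Gch1 had 2.15 CPM in RCF libraries and 3.13 CPM in controls. In DBA females the values were 1.91 for Th, 1.30 for Ddc, 1.72 for Slc6a3, 1.62 for Slc18a2 and 1.51 for Gch1. All 5 went the other way without DBA RCF female 5, at -0.44 for Th, -0.50 for Ddc, -1.26 for Slc6a3, -0.25 for Slc18a2 and -0.47 for Gch1.

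In C57 males the log2 fold changes were 1.09 for Th, 1.18 for Ddc, 1.42 for Slc6a3, 1.33 for Slc18a2 and 0.96 for Gch1. In C57 females they were 1.18 for Th, 1.21 for Ddc, 1.24 for Slc6a3, 1.24 for Slc18a2 and 1.19 for Gch1. These were positive for all 5 genes with each library of the condition left out in turn, and standard errors ran from 1.14 to 2.10. For Th the value in C57 males was 2.77 without C57 control male 3 and 0.39 without C57 RCF male 2, and in C57 females 2.32 without C57 control female 3. The 95% interval for Th in C57 females, from 0.282-fold to 18.1-fold, shows how little 5 libraries a group fixed.

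**Figure D2:**
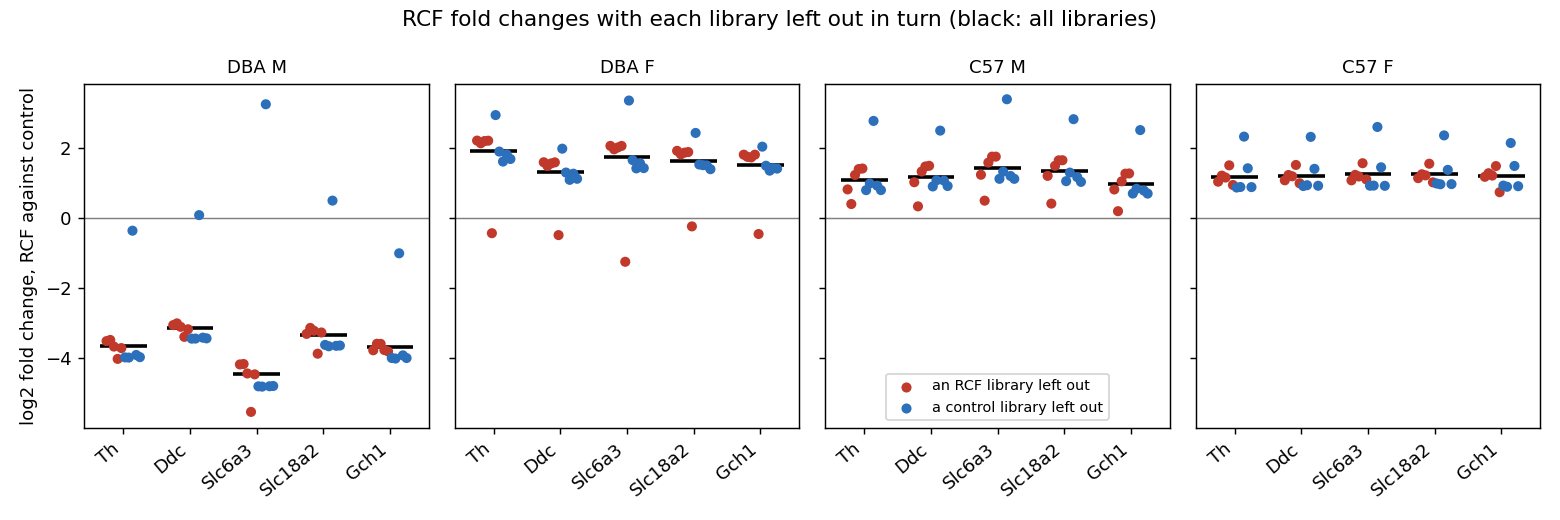
Log2 fold change of each gene for RCF against control in the 4 conditions, with all libraries (black bars) and with 1 library of the condition left out (dots, coloured by the group of the library left out). In DBA males 1 dot per gene, the one without control male 3, lies far above the rest, and in DBA females the one without RCF female 5 lies below 0 for all 5 genes.

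Averaged over the 4 conditions, the RCF difference was 0.13 for Th, 0.14 for Ddc, -0.03 for Slc6a3, 0.21 for Slc18a2 and -0.01 for Gch1 on the log2 scale, with standard errors of 0.73, 0.60, 1.03, 0.65 and 0.56. None of the 5 passed, where 0.0217% of all genes did. The 95% interval of Th ran from 0.389-fold to 3.06-fold, so changes inside that interval could not be told from none. The difference of the RCF effect between strains, DBA minus C57, was -2.01 for Th, -2.11 for Ddc, -2.71 for Slc6a3, -2.15 for Slc18a2 and -2.17 for Gch1. None of these passed (adjusted p 0.851 to 0.888 in edgeR, 0.0108% of genes called). These averages use the same libraries as the single conditions.

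Strain was the factor in which some of the genes passed. Averaged over sex and treatment, Th was lower in DBA than in C57 by a log2 fold change of -1.94 ± 0.76 (SE, edgeR adjusted p 0.0458) and Gch1 by -1.52 ± 0.59 (adjusted p 0.0464). Th had a median of 30.7 CPM in DBA and 227 CPM in C57, and Gch1 of 2.60 CPM in DBA and 11.3 CPM in C57 (20 libraries each). Ddc, at -1.49 ± 0.61 (adjusted p 0.0556), Slc18a2, at -1.64 ± 0.66 (adjusted p 0.0537), and Slc6a3, at -2.11 ± 1.07 (adjusted p 0.130), did not pass in edgeR. The 2 of 5 stand against 34.2% of all genes called between the strains, so strain differences were common among all genes.

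Markers of dopamine neurons and of other cells were counted in the averaged strain comparison too, where 34.2% of all genes were called. With so few markers a list, the counts below do not set them apart from all genes. Of 8 dopamine markers all were lower in DBA, 2 of them called, with a median of -1.37 on the log2 scale. Of 3 serotonin markers tested 2 were called lower in DBA, Tph2 (-3.04, edgeR adjusted p 0.00148) and Gata3 (-1.81, adjusted p 0.0237), and 1 was higher and not called. The summed level of the serotonin markers ran from 0.751 to 19.0 CPM in DBA and from 0.276 to 295 CPM in C57. Of 6 hypothalamic and mammillary markers 5 were higher in DBA, and the peptide genes Pmch (2.76, edgeR adjusted p 0.00229) and Hcrt (3.76, adjusted p 0.00291) were called. Their summed level ran from 17.0 to 1173 CPM in DBA and from 4.71 to 361 CPM in C57. Slc6a5, a glycine transporter and the hindbrain marker tested, was lower in DBA (-1.14, edgeR adjusted p 0.0343), and 0 of 5 forebrain markers were called. The Slc6a5 value was -2.54 among RCF libraries but 0.26 among controls. Its median was only 0.620 CPM in DBA and 0.999 CPM in C57. It reached 2.53 CPM in DBA and 56.8 CPM in C57, the latter in a C57 RCF female. The part of these cells in the strain values of the 5 genes was not tested.

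The strain values were negative for all 5 genes in RCF and in control libraries. Among RCF libraries Ddc was lower in DBA than in C57 (-2.55 ± 0.89, edgeR adjusted p 0.0353), as were Slc18a2 (-2.71 ± 0.97, adjusted p 0.0400) and Gch1 (-2.60 ± 0.87, adjusted p 0.0278). Th, at -2.94 ± 1.11 (adjusted p 0.0516), and Slc6a3, at -3.47 ± 1.61 (adjusted p 0.117), did not pass, and 23.8% of all genes did in edgeR. Among controls none of the 5 passed, at -0.93 for Th, -0.44 for Ddc, -0.76 for Slc6a3, -0.56 for Slc18a2 and -0.43 for Gch1, with 16.0% of genes called. Without C57 control male 3 the control values of Ddc (0.22), Slc6a3 (0.23), Slc18a2 (0.18) and Gch1 (0.35) were positive, and without C57 control female 3 those of Ddc (0.11) and Gch1 (0.04). The test of the difference between these sets of libraries is the strain difference of the RCF effect given above, and it was not passed.

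The strain calls lay close to the threshold. With 1 of the 40 libraries left out in turn, the averaged comparison called none of the 5 genes in 26 fits, 1 in 1 fit, 2 in 2 fits, 3 in 1 fit, 4 in 8 fits and 5 in 2 fits. The fits with 5 were those without DBA control male 3, where Th reached -2.76 and Slc6a3 -4.05, and without DBA RCF female 5. The 26 fits with none were those without any 1 of the 10 C57 libraries with the most Th or of 16 DBA libraries. Without the 4 libraries with high Slc17a7, 4 of 5 passed, all but Slc6a3. Without DBA control male 3, Slc6a3 (-4.63) and Slc18a2 (-2.48) also passed among controls. DESeq2 called 5 of 5 and limma voom 0 of 5 in the averaged comparison and among RCF libraries alike. The count over all genes was 6299 in the averaged comparison, 5845 to 6834 with a library left out and 5197 to 7193 in other settings. Among RCF libraries these counts were 4381, 3668 to 4544 and 3354 to 5438. Among controls the count was 2953, and 2546 to 3327 with a library left out.

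Sex gave no calls: female over male was 0.43 for Th, 0.29 for Ddc, 0.48 for Slc6a3, 0.30 for Slc18a2 and 0.44 for Gch1 on the log2 scale, with 0 of 5 passing in edgeR, DESeq2 and limma voom and 0.146% of all genes called in edgeR.

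The 5 genes rose and fell together from library to library. Deviations of log2 CPM from group means were correlated in all 10 pairs, with Pearson's r from 0.884 for Slc18a2 and Th to 0.959 for Gch1 and Ddc, and Spearman's rho from 0.902 to 0.975 (40 libraries). The permutation p adjusted over the 10 pairs was 1e-05 for each r and rho, the smallest that 100000 permutations can give. Without the 2 libraries farthest from the median, r ran from 0.882 to 0.976. Within DBA r ran from 0.838 to 0.958, and within C57 from 0.887 to 0.974.

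The genes did not keep pace, however. The slope of the main axis on the log2 scale was 1.63 for Slc6a3 on Th and 2.38 for Slc6a3 on Ddc, so Slc6a3 levels were spread far more than the others. It was 0.67 for Ddc on Th, 0.74 for Slc18a2 on Th and 0.64 for Gch1 on Th. Gch1 on Ddc, at 0.97, and Slc18a2 on Ddc, at 1.12, were nearest to equal spread.

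The genes whose levels followed each of the 5 most closely were, for Th, Drd2 (the dopamine D2 receptor, r = 0.964), Chrnb3 (a nicotinic receptor subunit), Gucy2c, Grip2 and Slc10a4. For Ddc they were Slc10a4 (a vesicular transporter of monoamine neurons, r = 0.979), Ret (the GDNF receptor kinase), Pitx3 (a transcription factor of midbrain dopamine neurons), Bnc2 and Cnpy1. For Slc6a3 they were Slc10a4 (r = 0.972), En1, Chrnb3, Cnpy1 and Pitx3. Slc18a2 was followed by Pitx3 (r = 0.953), Fam167a, Slc10a4, Tmem207 and Chrna6, and Gch1 by Fam167a (r = 0.953), Slc10a4, Pitx3, Chrna5 and Tmem207. The measure was Pearson's r of log2 CPM deviations from group means over 40 libraries. Slc10a4 was among the 5 nearest genes of every one of the 5, and Pitx3 of all but Th.

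Ratios within a library do not depend on its depth. In reads, Slc6a3 over Th ran from 0.0206 in C57 RCF male 4 to 2.04 in C57 RCF male 2, with a median of 0.854, and 19 of the 40 libraries had more Slc6a3 than Th reads. Ddc over Th ran from 0.444 in DBA control male 4 to 38.9 in C57 RCF female 4 (median 0.912), and Gch1 over Ddc only from 0.0298 in C57 control female 2 to 0.198 in DBA control male 4 (median 0.0768). Gch1 over Ddc had the smallest spread within groups of the 10 ratios, with a standard deviation of 0.56 on the log2 scale, followed by Slc18a2 over Ddc with 0.72. Per kilobase of merged exon, DBA control male 3 had 856 CPM of Slc6a3, 695 of Th, 266 of Ddc, 250 of Slc18a2 and 17.0 of Gch1, while the medians over libraries were 10.3, 17.0, 9.25, 7.49 and 0.547 CPM per kilobase in the same order.

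None of the 10 ratios passed the test between RCF and control or between strains. Over all conditions the smallest p was that of Gch1 over Slc18a2, with a mean log2 ratio of -3.73 ± 0.49 in RCF libraries and -3.26 ± 1.07 in controls (SD, n = 20 each), a difference of -0.47 (two-sided permutation p 0.0780, adjusted over the 10 ratios 0.780). Between strains Slc6a3 over Th had a mean log2 ratio of -1.52 ± 2.14 in DBA and -0.82 ± 2.10 in C57 (SD, n = 20 each), a difference of -0.70 (p 0.306 by permutation, adjusted 0.621). Within each of the 4 conditions 0 of 10 passed the two-sided exact permutation test, where 5 against 5 libraries cannot give a p below 0.00794. Adjusted over 10 ratios that is 0.0794, so no ratio could have passed alone within a condition. The smallest there was that of Gch1 over Ddc in DBA males, a difference of -0.74 on the log2 scale, with means of -3.93 ± 0.48 in RCF libraries and -3.19 ± 0.61 in controls (SD, n = 5 each, exact permutation p 0.0794, adjusted 0.661), and every ratio overlapped between RCF and control.

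The ratios did move with the amount of other dopamine neuron RNA. That amount was taken as the mean log2 CPM of 8 markers (Chrna6, Pitx3, Ret, Slc10a4, Foxa1, En1, Aldh1a1 and Drd2), and 7 of the 10 ratios were correlated with it over the 40 libraries. Slc6a3 rose relative to each other gene, with r of 0.767 against Th (rho 0.806), 0.897 against Ddc (rho 0.897) and 0.857 against Slc18a2 (rho 0.864). Each had an adjusted permutation p of 2.5e-05. Th rose relative to Ddc, with r of -0.710 for Ddc over Th (rho -0.773, adjusted permutation p 6.7e-05), to Gch1, with -0.684 for Gch1 over Th (rho -0.674, adjusted p 4e-05), and to Slc18a2, with -0.490 for Slc18a2 over Th (rho -0.405, adjusted p 0.0229). Gch1 over Slc6a3 had r of -0.895. Gch1 over Slc18a2 had -0.373 (rho -0.364), with an adjusted permutation p of 0.0514 for r and 0.0353 for rho, Gch1 over Ddc -0.266 (adjusted p 0.165) and Slc18a2 over Ddc 0.210 (adjusted p 0.276).

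These relations held on both sides of the strain divide except for one. For Slc6a3 over Th r was 0.779 in DBA and 0.769 in C57, and 0.712 without the 2 libraries with marker levels farthest from the median. For Slc18a2 over Th r was -0.185 in DBA and -0.672 in C57, and it ran from -0.282 to -0.578 with 1 library left out. The relation was computed after the ratios had been seen.

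**Figure D3:**
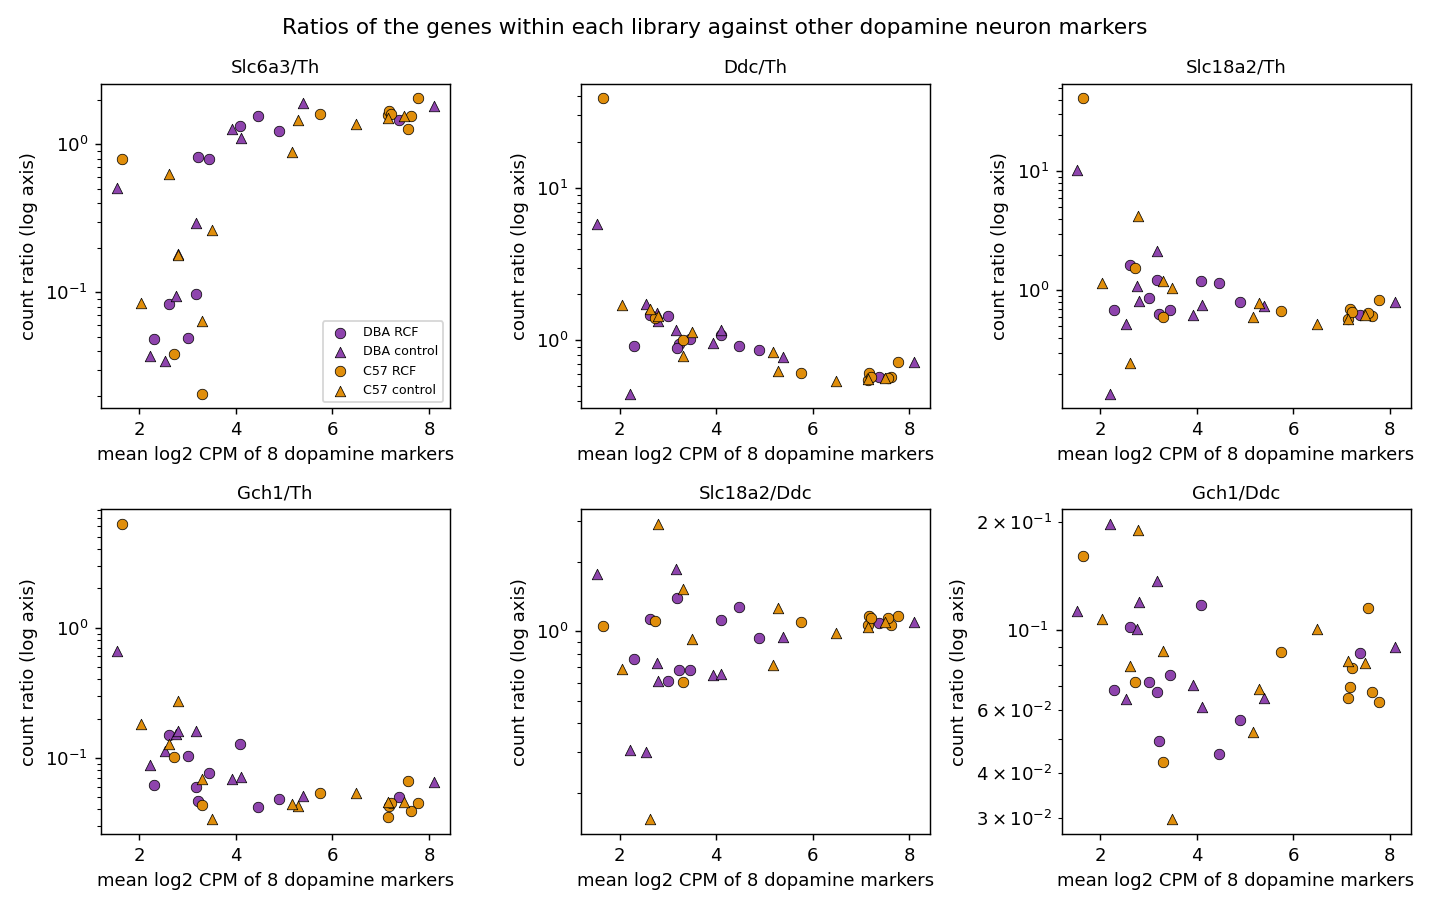
Count ratios of pairs of the genes (log axis) against the mean log2 CPM of 8 other dopamine neuron markers, 1 point a library, coloured by strain and shaped by treatment. Slc6a3 over Th climbs from values as low as 0.0206 to 2.04 and levels off, Ddc over Th lies between 0.543 and 0.723 in the libraries with a marker mean above 7, and Slc18a2 over Ddc and Gch1 over Ddc spread at low marker levels and narrow at high ones. At the lowest marker means, DBA control female 3 and C57 RCF female 4 lie off the climb, with Slc6a3 over Th of 0.504 and 0.793.

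Many single libraries show the same pattern. DBA control male 3, with the highest marker mean, 8.10, had 1.80 Slc6a3, 0.723 Ddc, 0.795 Slc18a2 and 0.0648 Gch1 reads for each Th read. C57 control female 3, at a marker mean of 7.49, had 1.55, 0.565, 0.623 and 0.0460 in the same order, and C57 RCF female 1, at 7.62, had 1.55, 0.575, 0.613 and 0.0387. These libraries are examples, and Slc6a3 over Th lay outside their values in others rich in dopamine markers. C57 RCF male 2, at 7.77, had 2.04 Slc6a3 and 0.827 Slc18a2 reads for each Th read. C57 RCF female 5, at 7.56, had 1.27 Slc6a3 and 0.0657 Gch1 reads for each Th read. DBA RCF female 5, at 7.37, had 1.45 Slc6a3 and 0.0498 Gch1 reads for each Th read. DBA control male 2, at a marker mean of 2.54, had 0.0343 Slc6a3 and 1.73 Ddc reads for each Th read, from 11 Slc6a3 and 335 Th reads. C57 RCF male 4, at 3.31, had 0.0206 Slc6a3 reads for each Th read and as many Ddc as Th reads, from 17 Slc6a3 and 847 Th reads. In these libraries Th and Ddc RNA was present with hardly any Slc6a3. The libraries with the lowest marker means went against the pattern of Slc6a3 over Th. DBA control female 3, at 1.53, had 0.504 Slc6a3 reads for each Th read, from 35 Slc6a3 and 70 Th reads. C57 RCF female 4, at 1.66, had 0.793, from 11 Slc6a3 and 14 Th reads.

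Markers of other cells or regions were high in some libraries with unusual ratios. C57 RCF female 4, with 38.9 Ddc reads for each Th read, had 43.7 CPM of Tph2 (the serotonin-making hydroxylase), 33.8 CPM of Hoxb5 (a hindbrain gene) and 1076 CPM of Slc17a7. C57 control female 1, with 2.90 Slc18a2 reads for each Ddc read, the most of all libraries, had 74.3 CPM of Hdc (the histamine-making decarboxylase), also the most. DBA control female 3, with 10.3 Slc18a2 reads for each Th read, had 53.3 CPM of Hdc and 1312 CPM of Slc17a7. C57 RCF female 5 had the most Tph2, 238 CPM, and the most Gch1 of its group, 82.7 CPM, with 1.27 Slc6a3 reads for each Th read. DBA control male 4, with 0.136 Slc18a2 reads for each Th read, the fewest, had 847 CPM of Pmch (a lateral hypothalamic peptide gene). High Hdc also occurred with Slc18a2 over Ddc nearer its median of 1.06. DBA RCF female 3, with 32.8 CPM of Hdc, had 1.12 Slc18a2 reads for each Ddc read. C57 control male 2, with 22.0 CPM of Hdc, had 1.26. Dbh and Slc6a2, markers of noradrenaline neurons, were at 0 in 22 and 21 libraries and at most 0.388 and 0.262 CPM.

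Over all 40 libraries, deviations of log2 Slc18a2 over Th from group means were correlated with those of Hdc (r = 0.502, rho = 0.537, adjusted permutation p 0.00740 and 0.00620 over 20 relations), as were those of Slc6a3 over Slc18a2 (r = -0.479, rho = -0.500, adjusted permutation p 0.0303 and 0.0355). Slc18a2 over Ddc had r of 0.498 (adjusted permutation p 0.0410) but rho of 0.447 (adjusted p 0.0693). Without the 2 libraries with Hdc levels farthest from the median, r was 0.313 for Slc18a2 over Th, -0.370 for Slc6a3 over Slc18a2 and 0.351 for Slc18a2 over Ddc, so part of each relation rests on those libraries. By r alone Ddc over Th (0.287) and Gch1 over Th (0.343) also passed, which makes 5 relations by r and 2 by both measures. The r with Hdc was larger in DBA than in C57 for each. It was 0.780 and 0.315 for Slc18a2 over Th, and -0.574 and -0.413 for Slc6a3 over Slc18a2. In the same order it was 0.585 and 0.423 for Slc18a2 over Ddc, 0.685 and 0.124 for Ddc over Th, and 0.732 and 0.179 for Gch1 over Th. None of the 10 ratios was correlated with Tph2 by an adjusted permutation p under 0.05, the lowest being 0.271 for r and 0.237 for rho. These 20 relations were chosen after the values were seen, and the part of other cells in the ratios was not tested.

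With the 8-marker mean as a covariate the 5 genes were compared at an equal level of other dopamine markers. None passed for RCF, strain or their interaction. The RCF difference averaged over conditions was -0.26 ± 0.26 for Th, -0.02 ± 0.14 for Ddc, -0.15 ± 0.34 for Slc6a3, 0.06 ± 0.22 for Slc18a2 and -0.25 ± 0.24 for Gch1 on the log2 scale (SE, 0.0217% of genes called in edgeR). The 95% interval of Ddc ran from 0.808-fold to 1.20-fold, against 0.474-fold to 2.55-fold without the covariate. Between strains the values were 0.32 ± 0.30 for Th, -0.06 ± 0.15 for Ddc, 0.71 ± 0.38 for Slc6a3, -0.19 ± 0.23 for Slc18a2 and -0.14 ± 0.26 for Gch1, with 28.2% of all genes called. The sign for Th and Slc6a3 was thus the opposite of that without the covariate, and neither passed.

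The smallest p-values at equal marker level were those of the strain difference of the RCF effect for Ddc, -0.96 ± 0.28 (unadjusted p 0.00150, edgeR adjusted p 0.711), and Gch1, -1.39 ± 0.48 (unadjusted p 0.00693, edgeR adjusted p 0.745). Th had -0.62 ± 0.50, Slc6a3 0.64 ± 0.68 and Slc18a2 -0.82 ± 0.44. None passed over all genes, where 0.0108% were called. The markers may themselves respond to strain or treatment, and what this does to the values of the 5 genes was not tested. Among the 8 markers, Chrna6 and Aldh1a1 were lower in DBA without the covariate (log2 fold changes of -2.33 and -1.20, edgeR adjusted p 0.0142 and 0.0195). At equal marker level 1 of the 8 was called higher and 2 lower in DBA, where 28.2% of all genes were called. None of the 8 was called for RCF in the average, with or without the covariate. The covariate is the mean of these same 8 markers. Their values with it are therefore held near balance around 0 and do not test them.

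**Figure D4:**
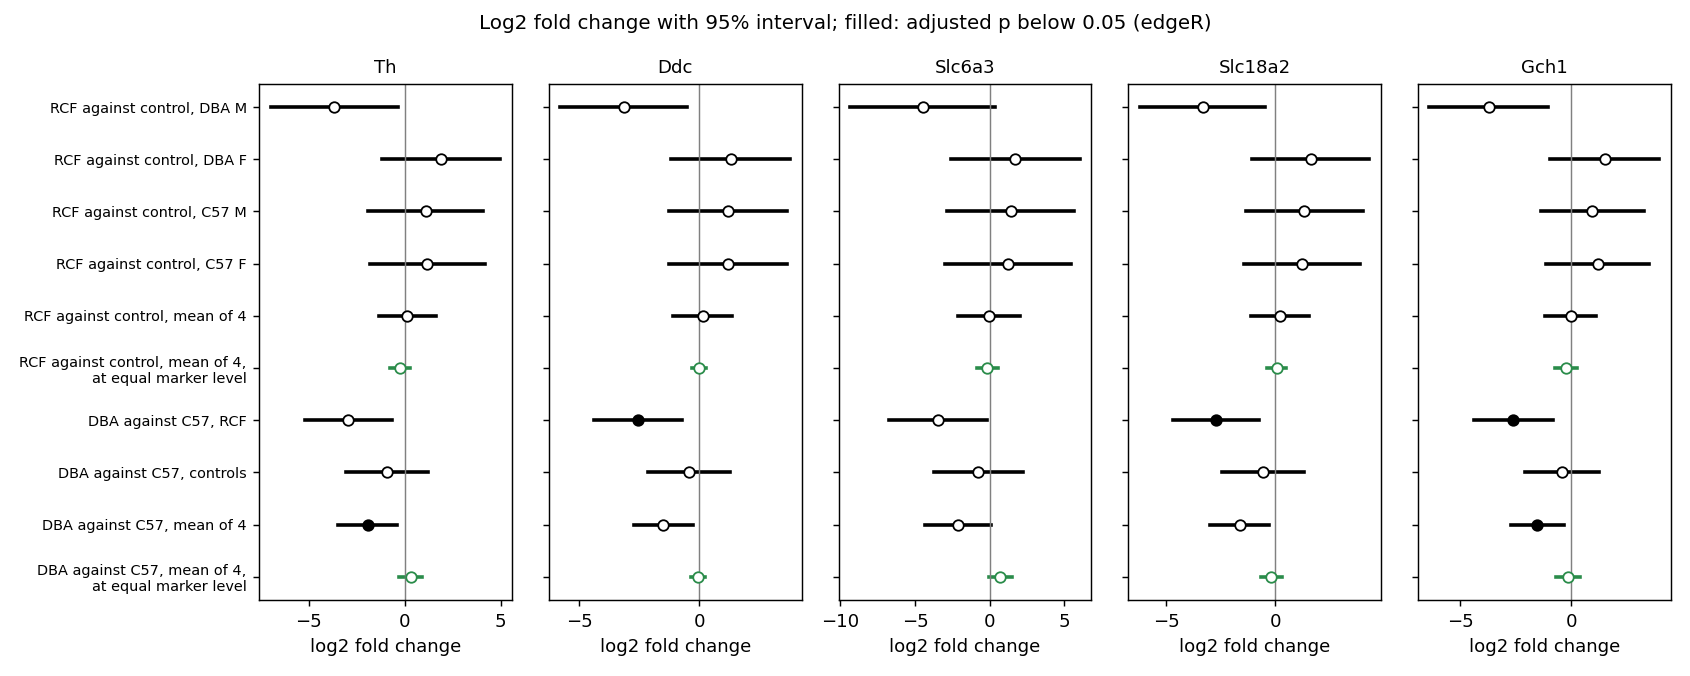
Log2 fold changes of the 5 genes with 95% intervals in the RCF and strain comparisons, without (black) and with (green) the dopamine marker mean as a covariate. Filled points, an adjusted p below 0.05 in edgeR, occur only in the black strain comparisons, for Ddc, Slc18a2 and Gch1 among RCF libraries and for Th and Gch1 in the average. All green intervals cover 0.

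The cofactor pathway around Gch1 was counted from a list of 7 genes. None passed in the RCF comparisons (0.0217% of all genes in the average), whose averaged median was 0.02 against -0.01 for all genes on the log2 scale. In the averaged strain comparison 4 of 7 were called lower in DBA and 0 called higher, against 34.2% of all genes called. Among the 4 were Pts, which makes 6-pyruvoyltetrahydropterin (-0.30, edgeR adjusted p 1.04e-06), Qdpr, which regenerates the cofactor (-0.36, adjusted p 0.0116), and Pcbd2 (-0.20, adjusted p 0.0316). At equal marker level Pts (-0.26) and Qdpr (-0.33) still passed in edgeR, so 2 of 7 did, where 28.2% of all genes were called. The strain values of these genes were far smaller than the -1.52 of Gch1, and more precise, since Pts ran only from 18.0 to 29.6 CPM and Qdpr from 116 to 470 CPM.

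Of 9 other genes of amine storage and transport, 7 were tested. None passed in the RCF comparisons (0.0217% of all genes in the average). In the averaged strain comparison 3 of 7 were called lower in DBA and 0 called higher, against 34.2% of all genes called. Among the 3 were Sncg (-0.68, edgeR adjusted p 0.0464) and Slc18a1, the vesicle transporter of endocrine cells (-0.99, adjusted p 0.0273), which reached at most 1.50 CPM. At equal marker level 0 of 7 passed, where 28.2% of all genes did. Slc6a4, the serotonin transporter, was at 0 in 20 libraries and reached 160 CPM in C57 RCF female 5.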

How the data were processed

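RNA from frozen punches was made into libraries with a strand-keeping kit (library type fr-secondstrand) and read as 75 nt single reads, per the labels' protocols. The tools named there, per the submitters' processing notes, include FastQC, bcl2fastq 2.20 and cutadapt 1.11, and the build GRCm38 (mm10). No source used here names the aligner, the counter, its strand setting or its annotation. The deposited values were whole-number read counts per gene, made by the authors with no normalization. The members and lists were chosen with earlier results of these data known.

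Symbols were matched by GENCODE M21 identifier for 54487 genes and in all for 55144 of 55471, among them all 5 genes, and promoters came from RefSeq (GRCm38.p6). In 40 of 40 libraries the order of Xist and Ddx3y fitted the labelled sex. No 2 libraries of a group were duplicates: over 80 pairs, chi-square divided by its degrees of freedom was 5.51 to 141.0.

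All 40 libraries entered 1 model with a mean per group (R 4.3.3 and edgeR 4.0.16, filterByExpr, 18441 genes, TMM factors 0.905 to 1.09, quasi-likelihood test with robust fitting), and p-values were adjusted by Benjamini-Hochberg over all genes, with a threshold of 0.05. Correlations and the markers used log2 CPM with a prior count of 2. Ratios were of counts plus 0.5 and were tested by exact permutation (5 against 5) or 100000 permutations within conditions, adjusted over 10 ratios. The named genes were the 5, the list genes that passed (up to 6 a comparison) and the 5 genes most correlated with each, leaving out unnamed gene models. Some list genes that passed, and the list medians for strain, are not reported here. Alternatives were other scalings, no filter, DESeq2 1.42.0, limma 3.58.1 voom, a replicate block, the marker covariate and its forms, other ratio settings, and each library left out. The fits and permutation tests were tested on simulated data.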

Additional observations from a re-analysis of the deposited data

Results flagged for a closer look

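In 33 of 120 sets of 5 libraries, 40 of levels and 80 of ratios, 1 library stood apart from the other 4 of its group by Dixon's criterion, 21 times in a level and 12 times in a ratio. Chance alone sets apart about 1 group in 20, and the sets are not independent since the genes move together.

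DBA control male 3 stood above its group for all 5 genes, with 1644 CPM of Th, 1189 of Ddc, 2959 of Slc6a3, 1307 of Slc18a2 and 106.5 of Gch1. DBA RCF female 5 did so with 935 CPM of Th, 537 of Ddc, 1357 of Slc6a3, 583 of Slc18a2 and 46.6 of Gch1. C57 control male 3 did so with 835 CPM of Th, 462 of Ddc, 1250 of Slc6a3, 484 of Slc18a2 and 37.8 of Gch1. DBA control female 1 did so for 4 genes, with 139 CPM of Ddc, 338 of Slc6a3, 132 of Slc18a2 and 9.02 of Gch1. DBA RCF male 4 was high in Slc18a2 (60.7 CPM) and C57 RCF female 4 low in Slc6a3 (0.569 CPM).

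Among log2 ratios, C57 RCF female 4 stood apart in 6, at 5.28 for Ddc over Th, 5.35 for Slc18a2 over Th, 2.64 for Gch1 over Th, -5.61 for Slc6a3 over Ddc, -5.69 for Slc6a3 over Slc18a2 and 2.98 for Gch1 over Slc6a3. Its 14 Th and 11 Slc6a3 reads leave wide counting error. DBA control female 3 was high in Ddc over Th (2.54) and Slc18a2 over Th (3.36), and DBA RCF female 3 in Gch1 over Th (-2.97). Slc18a2 over Ddc was low in C57 RCF male 4 (-0.73) and C57 control male 5 (-2.70), and Slc6a3 over Slc18a2 in C57 control male 1 (-3.79).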

How the results depend on the processing

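Counts of the 5 genes called for RCF, for the strain difference of the RCF effect, for sex and at equal marker level were 0 under every alternative run, and so were counts of ratios. Those for strain moved: the average (2 of 5) gave 0 without a filter on low counts, 5 with DESeq2, 0 with voom, 0 with the marker covariate and 4 without the 4 libraries with high Slc17a7, and 0 to 5 with a library left out. Among RCF libraries (3 of 5) the counts were 0, 5, 0 and 0 in the first 4 of these settings and 0 to 5 with a library left out, and among controls (0 of 5) 0 to 2. Why the counts of the 5 genes moved was not tested. Without a filter 42664 genes were tested in place of 18441.

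Signs that changed belong to values that passed no test there. With the marker covariate Slc6a3 was -0.77 in C57 males, 1.44 in DBA males and 0.64 in the strain difference of the RCF effect. In C57 females Th was -0.14 and Slc6a3 -0.17. In DBA females Ddc was -0.21, Slc6a3 -1.10, Slc18a2 -0.26 and Gch1 -0.16. The RCF average was -0.26 for Th and -0.024 for Ddc. For strain Th was 0.32 and Slc6a3 0.71, among RCF libraries 0.010 and 1.03, and among controls Th 0.63, Ddc 0.42, Slc6a3 0.39, Slc18a2 0.22 and Gch1 0.55. For sex Th was -0.31 and Slc6a3 -0.12. The RCF average of Gch1 was 0.00032 with unscaled totals, Slc6a3 was 0.94 and Gch1 0.38 with voom, and without the 4 libraries Th was -0.047 and Ddc -0.0093. At equal marker level the strain value of Ddc was 0.044 with other markers, 0.021 with a squared term and 0.14 without the 4 libraries, that of Gch1 0.14 without them, and that of Th -0.020 with voom. Slc18a2 over Th between strains was 0.028 without the 4 libraries.

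With a library left out, values in DBA males ran from -3.46 to 0.075 for Ddc, -5.55 to 3.24 for Slc6a3 and -3.89 to 0.49 for Slc18a2. In DBA females they ran from -0.44 to 2.93 for Th, -0.50 to 1.97 for Ddc, -1.26 to 3.35 for Slc6a3, -0.25 to 2.42 for Slc18a2 and -0.47 to 2.03 for Gch1. The RCF average ran from -0.46 to 0.95 for Th, -0.32 to 0.94 for Ddc, -0.77 to 1.91 for Slc6a3, -0.25 to 1.17 for Slc18a2 and -0.51 to 0.66 for Gch1. Strain among controls ran from -2.05 to 0.22 for Ddc, -4.63 to 0.23 for Slc6a3, -2.48 to 0.18 for Slc18a2 and -1.78 to 0.35 for Gch1. The strain difference of the RCF effect ran from -4.20 to 1.16 for Slc6a3. Sex ran from -0.16 to 1.26 for Th, -0.16 to 1.09 for Ddc, -0.26 to 2.42 for Slc6a3, -0.16 to 1.26 for Slc18a2 and -0.057 to 1.11 for Gch1. At equal marker level the RCF average ran from -0.39 to 0.071 for Th, -0.13 to 0.051 for Ddc and -0.072 to 0.23 for Slc18a2, strain from -0.11 to 0.097 for Ddc and -0.27 to 0.085 for Gch1, and the strain difference of the RCF effect from -0.80 to 0.23 for Th. RCF ratio differences ran from -0.34 to 0.084 for Ddc over Th, -0.10 to 0.39 for Slc18a2 over Th and -0.13 to 0.46 for Slc6a3 over Slc18a2, and strain ones from -0.24 to 0.25 for Slc18a2 over Th and -0.025 to 0.14 for Gch1 over Ddc.

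The replicate numbers did not pair the libraries: over 20 pairs with the same number r ran from -0.274 to 0.176, 2 pairs were over 0.1, and 3 RCF libraries correlated best with their own number. With the numbers as a block 0 of 5 passed for strain on average and 1, Gch1, among RCF libraries, the RCF average was 1.40 for Slc6a3 and 0.44 for Gch1, and 0.0053 for Ddc at equal marker level.

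Over all genes, DESeq2 called 18 in DBA males, 43 in DBA females, 7 in C57 males, 85 in C57 females, 11 in the RCF average and 65 for sex, where edgeR called 3, 3, 2, 1, 4 and 27. voom called 0 in DBA males, 1 in C57 males, 0 in C57 females and 1 in the interaction (edgeR 2). Without a filter the counts were 1 in C57 males, 0 in C57 females and 17 for sex, and with only the libraries compared 1 in DBA females, 1 in C57 males and 0 in C57 females. The block gave 0 in C57 females and 1 in the interaction, and leaving out the 4 libraries 0 in C57 males, 0 in C57 females and 2 in the RCF average at equal marker level (edgeR 4 with all libraries).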
